A study of Mus musculus with 4 samples.

Results

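The 9 genes described here are effectors of the integrated stress response, chosen by name as ATF4 and CHOP pathway genes: the transcription factors *Atf4*, *Atf5* and *Ddit3* (CHOP), the feedback regulators *Trib3* and *Ppp1r15a*, the enzymes *Chac1* and *Asns*, and the TORC1 inhibitors *Sesn2* and *Ddit4*. All 9 were among the 24062 genes of the count table, and all 9 passed the filter on low counts, which kept 15762 genes. They were measured by RNA-seq in mouse retinas at E13.5, on a mixed C57BL/6 and 129 background, from wildtype embryos (2 libraries) and from *Nrf1* conditional knockout embryos (*Nrf1 f/f;Six3-Cre*, labelled Nrf1-CKO, 2 libraries). Six3-Cre deletes a single coding exon of the floxed *Nrf1* gene, for a transcription factor of mitochondrial genes, and it acts in progenitors of the central retina from shortly before this stage. Per the study's methods, each RNA sample came from pooled retinas of several littermates. The methods call the experiment duplicated, but no label says whether the 2 libraries of a genotype came from separate pools, so p-values measure the spread between these libraries, which may be technical. Per gene, the chi-square between libraries of a genotype averaged 47.0 in wildtype and 59.0 in Nrf1-CKO, more than sampling noise gives.

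This response is the pathway by which a cell lowers general protein synthesis and turns on a set of repair and, if the stress persists, death genes. Kinases that sense amino acid shortage, misfolded protein, double-stranded RNA or mitochondrial and heme stress phosphorylate the initiation factor eIF2, and translation of most mRNAs falls while that of *Atf4* and a few others with upstream reading frames rises. The bZIP transcription factors ATF4 and CHOP then act on genes for amino acid supply, redox balance, feedback on eIF2 and control of the growth kinase TORC1. In tissues with impaired mitochondria this program is known as a common transcriptional response.

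Reads counted on genes numbered between 74577660 and 85933945 per library. The counts of *Nrf1*, the targeted gene, were 9052 and 7789 in wildtype against 8594 and 8284 in Nrf1-CKO retinas, a log2 change of -0.03 (SE 0.07 in edgeR), and this whole-gene count checks little because only 1 exon is deleted. The tissue label was checked against markers. The 13 progenitor markers summed to 8796 and 9452 in wildtype and 6924 and 7465 in Nrf1-CKO retinas in CPM, the read counts relative to the total of a library, scaled with the TMM factors of edgeR. All 13 were detected in every library. Lens markers summed to 154 and 423 CPM in wildtype but to 8878 and 3627 CPM in Nrf1-CKO libraries, so that Nrf1-CKO replicate 1 held more lens than progenitor marker signal, and values without each library are given where they matter. In such bulk samples, fewer cells of a type and less RNA per cell cannot be told apart.

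The start regions of the members were read first, because ATF4, CHOP and their C/EBP partners act on DNA through short motifs. Windows of 300 bases, 250 before and 50 after the start site in RefSeq on GRCm38.p6, were found for 9 of 9 members and searched on both strands for 3 motifs. The composite element of C/EBP and ATF factors was taken as TGATGNAA, the cAMP response element as TGACGTCA, and the core bound by NRF1 as CGCANGCG. Of 32851 RefSeq promoters of this length, 3.97% hold the composite element, 1.79% the cAMP response element and 8.21% the NRF1 core. The composite element lay in the windows of 3 members, *Chac1*, *Trib3* and *Asns*. The windows of the 5 members that rose in the mutant retinas are printed with those of *Asns* and *Ppp1r15a*, which also hold a match. Letters run 5′ to 3′ on the strand of the gene, and capitals mark the matches:
Chac1, chr2:119350992-119351291, plus strand: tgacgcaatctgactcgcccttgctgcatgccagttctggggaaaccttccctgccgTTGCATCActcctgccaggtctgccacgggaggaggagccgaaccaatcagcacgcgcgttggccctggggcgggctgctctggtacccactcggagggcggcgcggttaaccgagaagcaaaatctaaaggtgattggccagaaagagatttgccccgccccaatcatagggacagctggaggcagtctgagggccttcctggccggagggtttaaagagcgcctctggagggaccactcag
Trib3, chr2:152344011-152344310, minus strand: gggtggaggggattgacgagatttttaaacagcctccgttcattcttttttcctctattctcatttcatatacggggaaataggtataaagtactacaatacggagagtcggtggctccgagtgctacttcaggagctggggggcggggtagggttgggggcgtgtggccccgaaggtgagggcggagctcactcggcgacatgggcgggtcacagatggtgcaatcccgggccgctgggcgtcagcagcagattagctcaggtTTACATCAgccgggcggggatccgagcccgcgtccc
Sesn2, chr4:132510407-132510706, minus strand: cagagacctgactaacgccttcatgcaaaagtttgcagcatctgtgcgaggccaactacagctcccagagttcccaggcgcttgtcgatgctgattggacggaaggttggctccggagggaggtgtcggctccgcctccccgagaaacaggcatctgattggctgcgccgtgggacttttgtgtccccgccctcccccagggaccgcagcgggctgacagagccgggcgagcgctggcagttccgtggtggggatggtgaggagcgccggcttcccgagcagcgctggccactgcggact
Ddit3, chr10:127290543-127290842, plus strand: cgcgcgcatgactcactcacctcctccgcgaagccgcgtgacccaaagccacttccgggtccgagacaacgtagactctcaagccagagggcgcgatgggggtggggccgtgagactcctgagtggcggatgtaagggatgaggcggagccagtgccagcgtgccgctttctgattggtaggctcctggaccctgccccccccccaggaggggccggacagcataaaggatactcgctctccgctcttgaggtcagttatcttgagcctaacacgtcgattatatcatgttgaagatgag
Atf5, chr7:44816609-44816908, minus strand: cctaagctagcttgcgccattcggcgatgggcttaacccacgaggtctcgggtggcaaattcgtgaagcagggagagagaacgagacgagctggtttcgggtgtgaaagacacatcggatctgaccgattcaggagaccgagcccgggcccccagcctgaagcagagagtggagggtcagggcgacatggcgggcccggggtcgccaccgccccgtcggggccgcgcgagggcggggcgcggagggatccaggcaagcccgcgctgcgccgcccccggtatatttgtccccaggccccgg
Asns, chr6:7693160-7693459, minus strand: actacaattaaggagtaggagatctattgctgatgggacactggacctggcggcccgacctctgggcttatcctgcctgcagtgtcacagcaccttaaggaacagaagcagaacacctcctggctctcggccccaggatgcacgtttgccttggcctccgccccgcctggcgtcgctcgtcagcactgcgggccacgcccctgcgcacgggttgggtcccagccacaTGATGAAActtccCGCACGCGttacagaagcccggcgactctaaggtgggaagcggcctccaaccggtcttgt
Ppp1r15a, chr7:45526219-45526518, minus strand: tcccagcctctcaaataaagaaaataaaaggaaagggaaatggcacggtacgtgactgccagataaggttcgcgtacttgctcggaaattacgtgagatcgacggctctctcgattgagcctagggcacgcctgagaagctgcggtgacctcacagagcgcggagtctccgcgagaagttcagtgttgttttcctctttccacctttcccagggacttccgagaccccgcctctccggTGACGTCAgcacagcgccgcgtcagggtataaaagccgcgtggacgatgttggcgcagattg
In *Chac1* the match TTGCATCA begins 193 bases before the start site, and in *Trib3* the match TTACATCA begins at base 15 after it, counted from the RefSeq start. By the GENCODE coordinates given for *Trib3* that match lies upstream of the gene. Both are the composite element read on the other strand. *Asns* holds TGATGAAA 23 bases before its RefSeq start and the NRF1 core CGCACGCG 10 bases before it. By the GENCODE coordinates given for *Asns* both matches lie inside the gene, downstream of its start. *Ppp1r15a* holds the cAMP response element TGACGTCA 12 bases before its start. The windows of *Atf4*, *Atf5* (both annotated start sites), *Ddit3*, *Sesn2* and *Ddit4* contain none of these letters. A match is a description of the sequence and no evidence of binding.

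Of the 9 effectors, 5 were higher in Nrf1-CKO than in wildtype retinas, namely *Chac1*, *Trib3*, *Sesn2*, *Ddit3* and *Atf5*, and 0 were lower (edgeR quasi-likelihood test with Benjamini-Hochberg adjustment over all tested genes). DESeq2 also called 5 higher and 0 lower, and at an unadjusted p under 0.05 the counts in edgeR were 8 and 0. Many other genes passed this unadjusted cut in either direction. *Atf4*, which is among the 8, ranked 5445 of 15762 tested genes in the edgeR test. Calls required a 1.4-fold difference or more with an adjusted p no higher than 0.2, and 12.8% of all tested genes met these thresholds upwards and 8.04% downwards. At an adjusted p of at most 0.05 the same 5 members were called higher, beside 9.17% of all tested genes. Both Nrf1-CKO libraries lay above both wildtype libraries in 8 of 9 members, against 30.9% of all tested genes, and *Ddit4* was the exception. The median log2 change of the 9 members was 0.71, and that of all tested genes was 7e-04. The 3 members with the largest changes were an enzyme of glutathione breakdown, a pseudokinase and a sestrin, all from low or middling wildtype levels, while *Atf4*, the most abundant member, changed little.

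**Figure D1:**
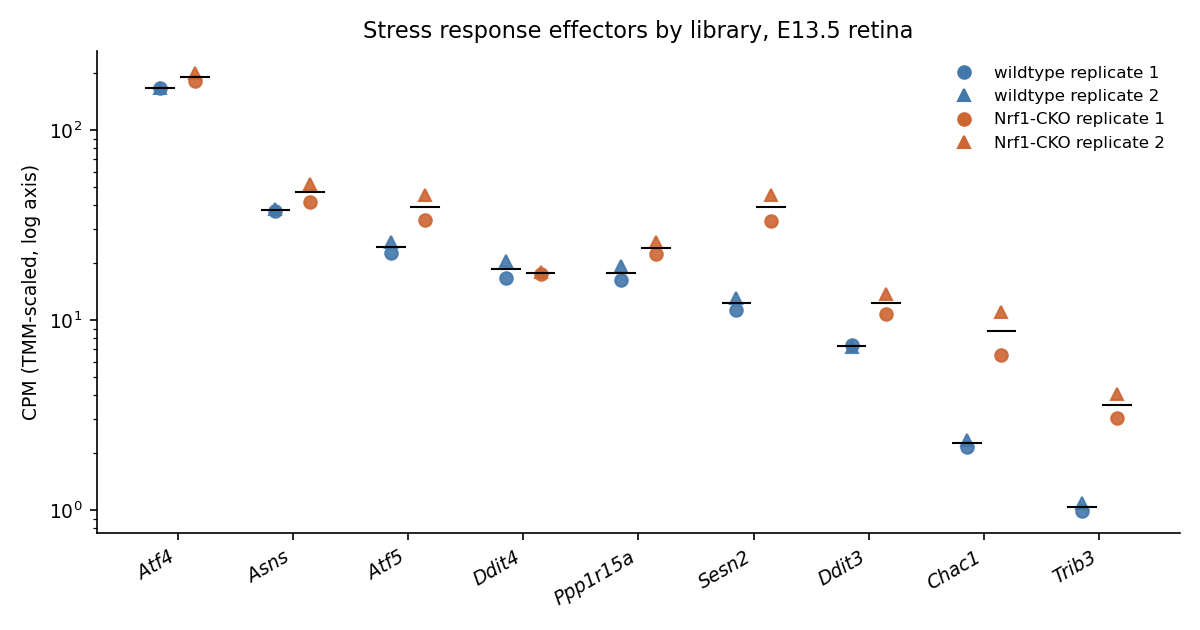
Level of each effector in CPM (TMM-scaled, log axis) in the 2 wildtype and 2 Nrf1-CKO libraries, ordered by wildtype mean. Points are libraries and black bars are group means; the libraries overlap only for *Ddit4*, and the gap between genotypes is widest for *Chac1*, *Trib3* and *Sesn2*.

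Per length, the wildtype retina held the effectors at very different levels. *Atf4* stood first at 70.7 ± 0.287 CPM per kb of exon (SD, n = 2). *Asns* followed at 13.9 ± 0.317, *Atf5* at 12.1 ± 1.2 and *Ddit4* at 10.6 ± 1.58 CPM per kb. Of all neighbours in this order, only *Atf5* and *Ddit4* had overlapping wildtype libraries. Below them came *Ppp1r15a* at 6.03 ± 0.701, *Ddit3* at 4.24 ± 0.0541 and *Sesn2* at 3.5 ± 0.36 CPM per kb. *Chac1* at 1.37 ± 0.0802 and *Trib3* at 0.485 ± 0.0321 CPM per kb were the lowest. In Nrf1-CKO retinas the mean level of *Sesn2* was 11.3 CPM per kb, above those of *Ppp1r15a* (8.14) and *Ddit3* (7.15), which exceed it in wildtype. Its Nrf1-CKO libraries, at 9.53 and 13.1 CPM per kb, lay on either side of those of *Ddit4*, at 9.99 and 10.2. *Atf4* remained first in Nrf1-CKO retinas, at 80.5 ± 6.07 CPM per kb.

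Among the transcription factors, *Atf4* (GRCm38 chromosome 15, 80255184 to 80257541, plus strand, up to 4 exons) encodes the main effector of eIF2 phosphorylation. It had 14646 and 12333 reads in wildtype and 14921 and 16534 in Nrf1-CKO libraries, or 167 and 166 CPM against 180 and 200 CPM. The wildtype pair is nearly identical, and both mutant libraries lie above it. The log2 change was 0.19 (SE 0.08), a fold of 1.14 that stayed under the threshold of 1.4 at an adjusted p of 0.141 in edgeR's quasi-likelihood test.

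*Atf5* (chromosome 7, 44812256 to 44816658, minus strand, up to 3 exons) encodes a bZIP factor related to ATF4 whose mRNA also carries upstream reading frames, and it is known for genes of mitochondrial protein folding. Its level was 22.4 and 25.8 CPM in wildtype and 33.7 and 45.2 CPM in Nrf1-CKO libraries. The groups did not overlap, and the mutant pair was spread more widely than the wildtype pair. *Atf5* rose by a log2 change of 0.71 (SE 0.14, 1.64-fold, adjusted p = 0.00706 in edgeR). Without Nrf1-CKO replicate 2 the log2 change was 0.48, just under the 1.4-fold threshold. Of its exonic bases, 4.11% lie opposite exons of *Nup62* and *Il4i1*, and without strand, which the sources used here do not give for the counting, reads there cannot be assigned.

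*Ddit3* (chromosome 10, 127290774 to 127296288, plus strand, up to 4 exons) encodes CHOP, a C/EBP family member that pairs with ATF4 and is known for its part in cell death under lasting stress. It was counted at 642 and 534 reads in wildtype and 901 and 1129 in Nrf1-CKO libraries, that is 7.33 and 7.2 CPM against 10.8 and 13.6 CPM. Both mutant libraries stood clear of the tight wildtype pair. *Ddit3* rose by a log2 change of 0.75 (SE 0.15, 1.69-fold, adjusted p = 0.00759 in edgeR). On the normalized values that the authors deposited, limma gave a log2 change of 0.48, under the 1.4-fold threshold. Exons of the neighbouring *Mars*, the methionyl-tRNA synthetase gene, lie opposite 3.97% of its exonic bases.

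Of the feedback regulators, *Trib3* was called and *Ppp1r15a* was not, and the difference between their changes was not tested. *Trib3* (chromosome 2, 152337422 to 152344032, minus strand, up to 4 exons) encodes a pseudokinase that ATF4 and CHOP induce and that restrains them in turn. It had 86 and 80 reads in wildtype and 254 and 335 in Nrf1-CKO libraries, or 0.982 and 1.08 CPM against 3.06 and 4.05 CPM. The lower mutant library was well above the higher wildtype library. *Trib3* rose by a log2 change of 1.79 (SE 0.29, 3.45-fold, adjusted p = 0.00244 in edgeR). On the deposited normalized values the log2 change was 0.63 and was still called.

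*Ppp1r15a* (chromosome 7, 45522916 to 45526268, minus strand, up to 3 exons) encodes GADD34, the subunit that directs a phosphatase to eIF2 and so ends the response. Its levels were 16.2 and 19.2 CPM in wildtype and 22.1 and 25.7 CPM in Nrf1-CKO libraries. The groups did not overlap, but the nearest libraries of the genotypes were about as far apart as the wildtype libraries were from each other. Its log2 change was 0.43 (SE 0.13, 1.35-fold) with an adjusted p of 0.0367 in edgeR, so the fold and not the p kept it from being called. Without wildtype replicate 2 the log2 change was 0.56, and without Nrf1-CKO replicate 1 it was 0.54, both past the thresholds.

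Of the enzymes, *Chac1* (chromosome 2, 119351229 to 119354381, plus strand, up to 3 exons) encodes a cyclotransferase that breaks down glutathione. It was counted at 188 and 173 reads in wildtype and 546 and 906 in Nrf1-CKO libraries, or 2.15 and 2.33 CPM against 6.57 and 11 CPM. Both mutant libraries were far above the wildtype pair, and they also differed most from each other among the 9 genes. *Chac1* rose by a log2 change of 1.97 (SE 0.25, 3.91-fold, adjusted p = 0.000825 in edgeR), the largest change of the effectors. Of all tested genes, 2.63% had a larger log2 change. On the deposited normalized values the log2 change was 0.96 and was still called.

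*Asns* (chromosome 6, 7675169 to 7693254, minus strand, up to 12 exons) encodes asparagine synthetase, the classic target of the amino acid branch. It had 37.3 and 38.5 CPM in wildtype and 41.7 and 52.2 CPM in Nrf1-CKO libraries. Both mutant libraries were higher, replicate 1 only slightly so. The log2 change was 0.31 (SE 0.11, 1.24-fold) and was not called at an adjusted p of 0.0788 in edgeR, since it stayed under 1.4-fold.

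Of the TORC1 inhibitors, *Sesn2* was called and *Ddit4* was not. *Sesn2* (chromosome 4, 132492032 to 132510501, minus strand, up to 10 exons) encodes a leucine-binding sestrin that restrains TORC1, and p53 as well as ATF4 is known to induce it. It was counted at 987 and 967 reads in wildtype and 2752 and 3770 in Nrf1-CKO libraries, or 11.3 and 13.0 CPM against 33.1 and 45.6 CPM. The mutant libraries lay far above both wildtype libraries. *Sesn2* rose by a log2 change of 1.70 (SE 0.16, 3.24-fold, adjusted p = 0.000209 in edgeR), and of the 9 members it ranked highest by p, at 179 of all tested genes.

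*Ddit4* (chromosome 10, 59949669 to 59951834, minus strand, up to 3 exons) encodes REDD1, which restrains TORC1 through the TSC complex and is also known as a hypoxia-inducible gene. Its levels were 16.6 and 20.5 CPM in wildtype and 17.5 and 17.8 CPM in Nrf1-CKO libraries. Both mutant libraries fell between the wildtype libraries. The log2 change was -0.07 (SE 0.13, adjusted p = 0.745 in edgeR), and its sign turned to 0.09 without wildtype replicate 2. The difference in change between *Sesn2* and *Ddit4* was not tested.

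**Figure D2:**
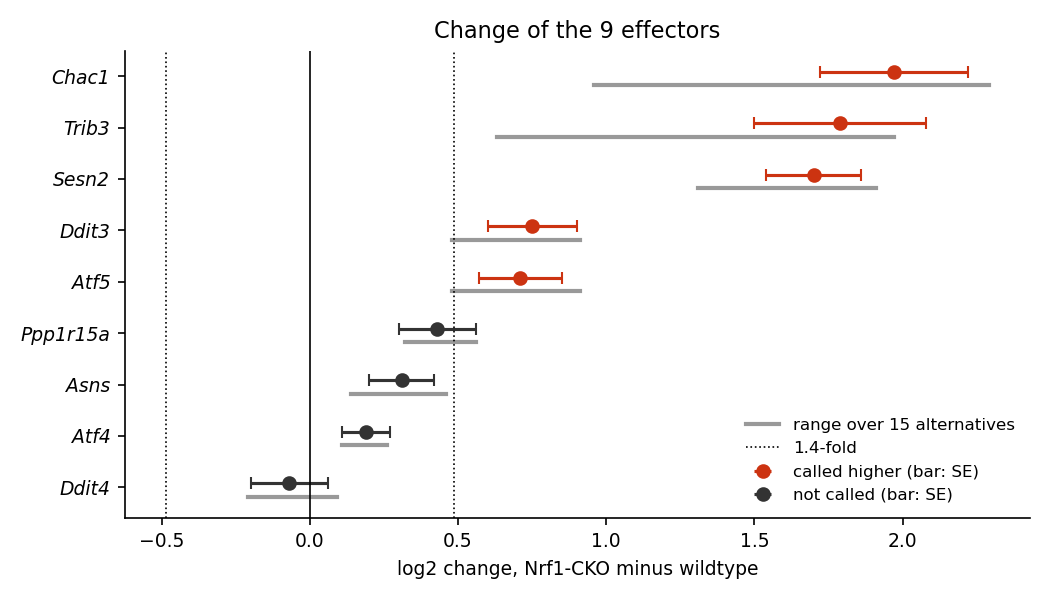
Log2 change, Nrf1-CKO minus wildtype, of the 9 effectors with its SE (bars), red where called higher. Grey lines span the values over 15 alternative analyses and dotted lines mark a 1.4-fold change; *Chac1*, *Trib3* and *Sesn2* stay to the right of 1.4-fold throughout, and *Ddit4* straddles 0.

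The mutant libraries were not alike in these genes. All 9 effectors were higher in Nrf1-CKO replicate 2 than in replicate 1, with log2 differences from 0.03 for *Ddit4* to 0.74 for *Chac1*, while 48.1% of all tested genes were higher in replicate 2. Of the 9, 7 were also higher in wildtype replicate 2 than in wildtype replicate 1, with differences from -0.03 to 0.31, against 50.2% of all tested genes. Without Nrf1-CKO replicate 2 the log2 changes of *Chac1*, *Trib3*, *Sesn2*, *Ddit3* and *Atf5* were 1.55, 1.57, 1.45, 0.58 and 0.48. They were 2.29, 1.97, 1.91, 0.91 and 0.91 without Nrf1-CKO replicate 1, the library with the most lens signal. Without wildtype replicate 1 they were 1.91, 1.72, 1.60, 0.77 and 0.62, and without wildtype replicate 2 they were 2.03, 1.86, 1.81, 0.74 and 0.82. *Trib3*, *Chac1* and *Sesn2* were called higher in all 15 alternative analyses, and *Atf5* and *Ddit3* in 14 of 15.

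Markers of other cell types also moved with genotype, and their part in these results was not tested. All 9 tested lens markers rose, and the summed level given above, which includes the untested *Lgsn*, was led by the crystallins *Cryaa* and *Crybb3*. Between the mutant libraries, the sums of lens, mesenchyme and endothelial markers were higher in replicate 1, as was that of ganglion cell markers, while those of progenitors, macrophages and microglia, pigment epithelium and erythroid cells were higher in replicate 2, as the 9 effectors were. All 9 markers of macrophages and microglia rose, from summed levels of 76.6 and 71.6 CPM to 235 and 280 CPM, led by *Csf1r* and *Cx3cr1*. Pigment epithelium markers summed to 249 and 181 CPM in wildtype and 456 and 483 CPM in mutant retinas, with 7 of 8 called higher and *Pmel* and *Dct* the most abundant. Periocular mesenchyme markers, led by *Col3a1* and *Col1a2*, went from 257 and 184 CPM to 403 and 344 CPM, with 6 of 9 called higher. The erythroid sums were 481 and 566 against 623 and 629 CPM, almost all *Hbb-y* followed by *Alas2*, with 3 of 5 tested markers called higher and *Hba-a1* and *Hbb-bt* listed at 0. Endothelial markers held close sums of 263 and 269 against 279 and 272 CPM, but *Kdr* made up most of each. *Kdr* was called lower, at 200 and 211 against 144 and 137 CPM, while 5 of 7 were called higher. Of these, *Cdh5* went from 25.6 and 23.2 to 59.2 and 53.5 CPM, so the sum hides changes of opposite sign. All 10 markers of retinal ganglion cells fell, *Tubb3* and *Nefl* the most abundant, from sums of 3057 and 3484 CPM to 1315 and 1065 CPM. Of the 13 progenitor markers 3 fell, including *Ccnd1* but not *Sfrp2*. Of all tested genes, 12.8% were called higher and 8.04% lower.

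**Figure D3:**
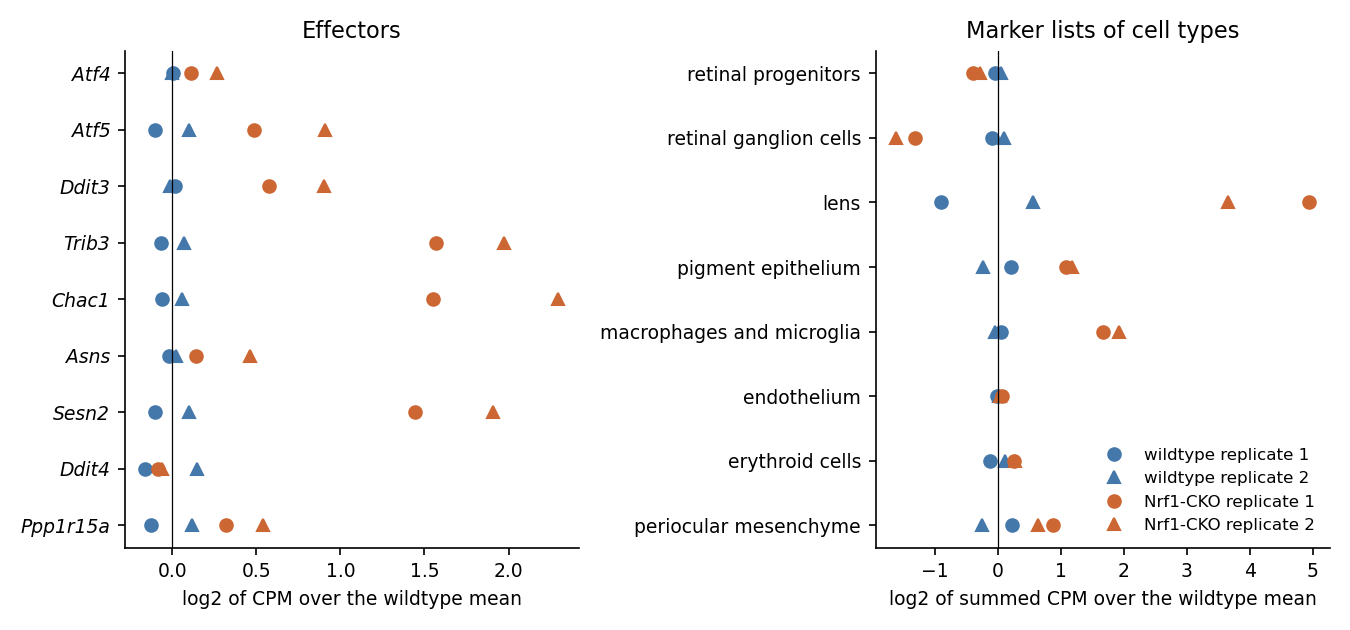
Left, log2 of the CPM of each effector over its wildtype mean in each library. Right, the same for the summed CPM of each marker list; the effectors are highest in Nrf1-CKO replicate 2 (orange triangles) in all members but *Ddit4*, while the lens sum is highest in Nrf1-CKO replicate 1 (orange circles) and the macrophage and pigment epithelium sums in replicate 2.

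Upstream of the effectors, the mRNAs of the eIF2 kinases were mostly not called, as were most tested genes. Over all tested genes 12.8% were called higher and 8.04% lower, and these shares stand beside every list count of calls below. They do not apply to the counts at an unadjusted p under 0.05. Of 15 tested genes for the eIF2 kinases, their regulators, eIF2, its exchange factor eIF2B and the constitutive phosphatase subunit, 1 was called higher and 0 lower by edgeR, with a median log2 change of -0.02. At an unadjusted p under 0.05, 3 were higher and 2 lower, and DESeq2 called 1 and 0. The gene called was *Eif2ak2* (PKR, the kinase activated by double-stranded RNA), which rose from 15.7 and 14.3 CPM to 20.8 and 23.4 CPM, a log2 change of 0.56 (SE 0.11, adjusted p = 0.00801 in edgeR). Without Nrf1-CKO replicate 2 its log2 change was 0.47 and the call was lost. *Eif2ak3* (PERK, of the endoplasmic reticulum) had a log2 change of 0.32, *Eif2ak4* (GCN2, which senses uncharged tRNA) 0.15 and *Eif2ak1* (HRI, which relays heme and mitochondrial stress) -0.02, none of them called. Kinase activity is not read by RNA-seq.

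Other bZIP genes that pair with ATF4 and CHOP, or act beside them, were higher in several cases. Of 16 tested, 8 were called higher and 0 lower by edgeR, with a median log2 change of 0.62. At an unadjusted p under 0.05 the counts were 9 and 0, and DESeq2 called 7 and 0. *Fos*, an immediate early gene, went from 19 and 18 reads to 427 and 524, a log2 change of 4.64 (SE 0.30), or 1.38 on the deposited normalized values. *Atf3*, a stress-induced partner of CHOP, had 61 and 77 reads in wildtype and 428 and 688 in Nrf1-CKO libraries, a log2 change of 2.96 (SE 0.31, adjusted p = 0.000318 in edgeR), or 1.16 on the deposited values. Both mutant libraries were several-fold above both wildtype libraries for these genes. *Cebpd* (log2 change 1.77), *Cebpa* (1.35) and *Cebpb* (1.26) rose too, all from under 4 CPM in wildtype. At an adjusted p of at most 0.05, 6 of the 8 remained called, and *Cebpb* (adjusted p = 0.0937 in edgeR) did not. The *Cebpb* call was also lost without wildtype replicate 1, at a log2 change of 0.81, and without Nrf1-CKO replicate 1, at 1.20. *Cebpg*, an abundant partner of ATF4, was at 81.3 and 72.5 CPM in wildtype and 70.5 and 69.7 CPM in mutant libraries and was not called.

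The known targets of ATF4 did not move as a block. Among amino acid transporters 5 of 9 were called higher and 0 lower, with a median log2 change of 0.60, and DESeq2 gave the same counts (8 and 0 at an unadjusted p under 0.05 in edgeR). *Slc7a11*, the cystine importer that supplies glutathione synthesis, had 16.5 and 11 CPM in wildtype and 48.8 and 41.8 CPM in Nrf1-CKO libraries, a log2 change of 1.72 (SE 0.18, adjusted p = 0.000294 in edgeR). Both mutant libraries were well above the wildtype pair, and here replicate 1 was the higher mutant library. *Slc7a3*, a carrier of cationic amino acids, had a log2 change of 1.38 (SE 0.33), *Slc6a9*, a glycine carrier, 0.99 (SE 0.14) and *Slc7a5*, the leucine exchanger, 0.91 (SE 0.08). The heavy chain *Slc3a2*, which pairs with both *Slc7a5* and *Slc7a11* and was named after its values were seen, was the other gene called, at 0.60 (SE 0.08).

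Genes of amino acid and folate metabolism gave 2 of 11 called higher and 1 lower, beside 12.8% and 8.04% of all tested genes. Their median log2 change was 0.04. *Phgdh*, the entry enzyme of serine synthesis, rose from 21.9 and 21.2 CPM to 33.5 and 40.6 CPM, a log2 change of 0.78 (SE 0.11). *Mthfd2*, a mitochondrial folate enzyme, rose by 0.52 (SE 0.11) and was not called without wildtype replicate 2 (0.42) or without Nrf1-CKO replicate 2 (0.46). *Shmt2*, the mitochondrial serine hydroxymethyltransferase, went the other way, from 195 and 211 CPM in wildtype to 123 and 124 CPM, a log2 change of -0.72 (SE 0.08, adjusted p = 0.00034 in edgeR). These genes of serine metabolism thus had changes of opposite sign.

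Of 12 tRNA synthetase genes 0 were called in either direction by edgeR and by DESeq2. Over all tested genes edgeR called 12.8% higher and 8.04% lower. The log2 changes of the 12 ran from -0.27 to 0.19, and at an unadjusted p under 0.05 in edgeR 1 was higher and 2 lower. *Mars*, whose exons overlap those of *Ddit3*, had a log2 change of 0.17 (SE 0.08). Of 14 further tested targets of ATF4 and CHOP, 6 were called higher and 1 lower, with a median of 0.41, and limma on the deposited normalized values called 2 higher. *Gdf15*, a secreted stress factor, had 4 and 2 reads in wildtype against 25 and 61 in Nrf1-CKO libraries (log2 change 3.76, SE 0.88), and 2.98 without Nrf1-CKO replicate 2. *Tnfrsf10b*, a death receptor that CHOP induces, had a log2 change of 1.29 (SE 0.21) and *Bbc3* (PUMA), a cell death gene of both CHOP and p53, 0.95 (SE 0.16). *Nupr1*, a stress-induced chromatin protein, had 0.799 and 1.17 CPM in wildtype and 3.23 and 1.52 CPM in mutant libraries (log2 change 1.27, SE 0.42, adjusted p = 0.0627 in edgeR, so not called at 0.05). Its call was lost without wildtype replicate 1 (1.02) and without Nrf1-CKO replicate 1 (0.63). *Vldlr*, a lipoprotein receptor, fell by 0.75 on the log2 scale (SE 0.14). *Fgf21*, a hormone induced by mitochondrial stress in muscle and liver, was at 0 reads in all 4 libraries, and *Adm2* had 1, 10, 8 and 7 reads, so neither was tested.

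The other branches of the unfolded protein response were compared as well. Of 16 chaperone and degradation genes known as ATF6 and IRE1 targets, 0 were called higher or lower by edgeR and by DESeq2. Over all tested genes edgeR called 12.8% higher and 8.04% lower. The log2 changes of the 16 ran from -0.10 to 0.38, with a median of 0.09. At an unadjusted p under 0.05 in edgeR, 4 were higher and 0 lower. *Hspa5* (BiP), the main chaperone of the endoplasmic reticulum, was at 547 and 534 CPM in wildtype and 566 and 592 CPM in Nrf1-CKO libraries, a log2 change of 0.10 (SE 0.08, adjusted p = 0.419 in edgeR). The mutant libraries were slightly higher, by less than 1.4-fold.

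**Figure D4:**
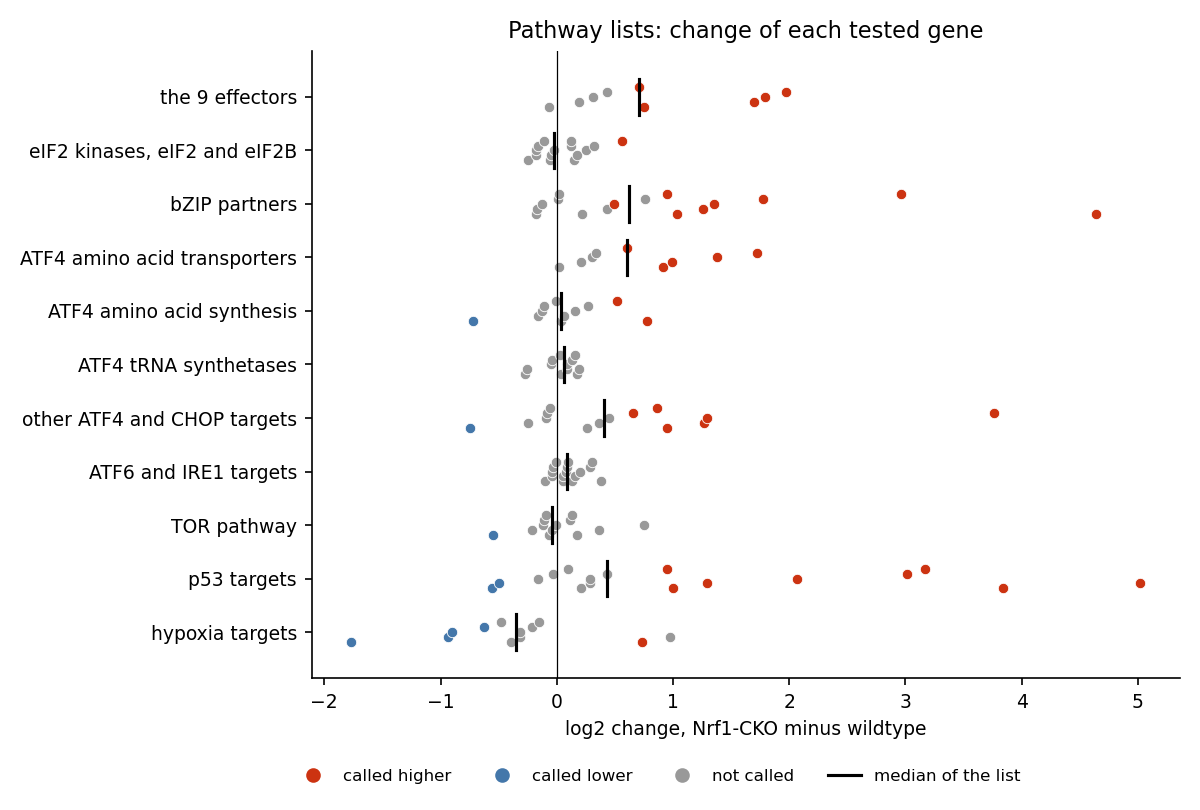
Log2 change, Nrf1-CKO minus wildtype, of every tested gene in the effector list and in 10 related lists; red points were called higher, blue lower and grey neither, and black bars are list medians. The medians of the effectors (0.71), bZIP partners (0.62) and amino acid transporters (0.60) lie to the right, those of tRNA synthetases (0.06) and of ATF6 and IRE1 targets (0.09) near 0.

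Paralogs of the members were compared next. Of 7 tested, 0 were called higher and 1 lower by edgeR (DESeq2 the same, and 2 and 1 at an unadjusted p under 0.05 in edgeR). *Trib2* fell from 82.0 and 81.1 CPM to 56.5 and 57.2 CPM, a log2 change of -0.52 (SE 0.07), while its relative *Trib3* rose, and *Trib1* had a log2 change of 0.41 (SE 0.09) below 1.4-fold. Beside *Sesn2*, *Sesn3* had 0.48 (SE 0.08), just under the threshold, and *Sesn1*, the p53-induced sestrin, -0.16 (SE 0.09). *Sesn3* was called higher without wildtype replicate 1 (0.50) or Nrf1-CKO replicate 2 (0.55), and *Trib1* without wildtype replicate 1 (0.49). Under upper quartile scaling *Sesn3* (0.52) was called higher and *Trib2* (-0.48) was not called, so the counts became 1 higher and 0 lower. *Chac2* (0.07), *Ddit4l* (0.09) and *Ppp1r15b* (0.12), the nearest relatives of *Chac1*, *Ddit4* and *Ppp1r15a*, were not called. Of the 50-base stretches in member transcripts, 1.81% of those of *Atf5* and 1.11% of those of *Ddit3* also occur in transcripts of other genes, and 0% of those of the other members. On the deposited normalized values, limma did not call *Eif2ak2* (0.43), *Cebpb* (0.32), *Mthfd2* (0.42), *Gdf15* (0.40), *Nupr1* (0.39), *Trib2* (-0.47), or *Stc2* (0.32) and *Jdp2* (0.41), further targets of ATF4 and CHOP named after their values were seen, all with the same sign. Called but moved by over 1.5-fold on these values were *Cebpd* (0.50), *Cebpa* (0.66), *Slc7a3* (0.54) and *Tnfrsf10b* (0.57). The shrinkage was larger at low levels. *Gdf15*, with 4 and 2 wildtype reads, went from 3.76 to 0.40, and *Slc7a5*, at 56.9 and 55.9 CPM in wildtype, from 0.91 to 0.84.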

How the data were processed

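The 2 wildtype and 2 Nrf1-CKO retina libraries of E13.5 embryos were grouped by their titles. The authors aligned reads to mm10 with TopHat2 2.7.2, counted them per gene with HTSeq and deposited these raw counts. They also deposited normalized values on a log2 scale; the step that made them, the annotation release and the strand setting are not given in the sources used here, although the submitters' processing notes name DESeq and limma without a role. The summary rows of HTSeq, 74.0% to 75.0% of entries, were left out.

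Counts were filtered with filterByExpr (minimum count 10), scaled with TMM and tested in edgeR 4.0.16 (R 4.3.3) by its quasi-likelihood F test, with Benjamini-Hochberg adjustment over 15762 genes and genotype as the only term. Calls required a 1.4-fold difference or more with an adjusted p no higher than 0.2, as in the study. SE is the absolute log2 change over the square root of F. The biological coefficient of variation was 12.0%, and intervals and errors cover these libraries only. The scripts were tested on simulated data. The members, gene lists and tests were chosen with earlier results of these data known. Named were all members and paralogs, in each list the called genes, at most 4 per direction by size of change, fixed partners of the members, the 2 most abundant genes of each marker list, and the 3 genes nearest to *Atf4* and to *Ddit3*. Symbols missing from the table were matched through RefSeq synonyms. Gene coordinates and exons come from GENCODE on GRCm38, promoter sequences from RefSeq on GRCm38.p6. Alternatives used DESeq2 1.42.0, limma 3.58.1 on the deposited values, other scaling, filters and thresholds, a replicate block and each library left out in turn.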

Additional observations from a re-analysis of the deposited data

How the results depend on the processing

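Over 15 alternatives, *Trib3*, *Chac1* and *Sesn2* stayed higher and called. With no minimum fold, *Atf4* (0.19), *Asns* (0.31) and *Ppp1r15a* (0.43) were also called, making 8 members, and in the related lists 56 genes were higher and 23 lower, against 30 and 10 of 139 tested genes in the main analysis. At that setting all genes called higher came to 3211 and all genes called lower to 3076 of 15762, so the counts grew over the whole table. On the deposited normalized values, limma gave 18 and 5 in the lists and 944 and 722 over all genes, against 2024 and 1268 in the main analysis. There *Ddit3* (0.48) missed 1.4-fold. glmTreat, which tests against a fold of 1.4, left 21 higher and 6 lower in the lists and 1188 and 743 over all genes. It kept 5 of the 8 bZIP calls, 4 of the 5 transporter calls and 4 of the 6 upward calls of further ATF4 and CHOP targets. Kept were 0 of the calls of *Eif2ak2*, *Cebpb*, *Nupr1*, *Mthfd2*, *Trib2*, *Egln3*, *Nprl2*, *Plk3* and *Tigar*. Leave-one-out ranges of the log2 change were 0.11 to 0.26 for *Atf4*, 0.48 to 0.91 for *Atf5* and 0.58 to 0.91 for *Ddit3*. They were 1.57 to 1.97 for *Trib3*, 1.55 to 2.29 for *Chac1* and 0.14 to 0.46 for *Asns*. For *Sesn2* the range was 1.45 to 1.91, for *Ddit4* -0.21 to 0.09 and for *Ppp1r15a* 0.32 to 0.56. A lone library was then assumed to vary like the rest. Signs turned for *Ddit4* (0.09) and *Chac2* (-0.21; leave-one-out range -0.21 to 0.44) without wildtype replicate 2, for *Eif2ak1* (0.02; leave-one-out range -0.06 to 0.02) under upper quartile scaling and without Nrf1-CKO replicate 1, and for *Nrf1* (0.01) under upper quartile scaling, and the cause was not tested. With the replicate number as a block, the members gave 5 higher and 0 lower, the lists 30 and 10, with all genes called higher at 1970 and all genes called lower at 1256, against 2024 and 1268. The libraries share only a number, since deviations of same-numbered libraries had a correlation of -0.0042. Depth limits the rarest genes most, such as *Gdf15* with 4 and 2 wildtype reads.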

Other observations

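Genes known as targets of p53, a factor that shares *Sesn2* with the stress response, were read as a related list. Of 17 tested, 8 were called higher and 2 lower by edgeR, beside 12.8% and 8.04% of all tested genes. Their median log2 change was 0.43. *Cdkn1a*, the cell cycle inhibitor p21, had 2.82 and 1.47 CPM in wildtype and 15.8 and 19.0 CPM in Nrf1-CKO libraries (log2 change 3.01, SE 0.27). *Eda2r*, a death domain receptor, rose by a log2 change of 3.17 (SE 0.15), and *Pmaip1* (NOXA), a cell death gene, by 3.84 (SE 0.38). On the deposited normalized values these were smaller, 1.69 for *Cdkn1a*, 1.88 for *Eda2r* and 1.10 for *Pmaip1*, and still called. *Fas*, a death receptor, had 1 and 0 reads in wildtype and 21 and 20 in Nrf1-CKO libraries, at least 6.11-fold higher against a floor of 3 reads per library. The genes called lower were *Plk3*, a stress kinase (-0.50), and *Tigar*, a regulator of glycolysis (-0.56, listed as 9630033F20Rik). Without wildtype replicate 2 neither was called lower, and *Plk3* was also not called without Nrf1-CKO replicate 1 (-0.41) or under upper quartile scaling (-0.46).

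Genes known to be induced by hypoxia, to which *Ddit4* also belongs, were lower in several cases. Of 12 tested, 4 were called lower and 1 higher, beside 8.04% and 12.8% of all tested genes. Their median log2 change was -0.36. *Ndufa4l2*, a mitochondrial protein, fell from 16.1 and 17.1 CPM to 5.27 and 4.47 CPM, a log2 change of -1.77 (SE 0.14). *Ankrd37* (-0.94), the mitophagy receptor gene *Bnip3* (-0.90) and *Pdk1* (-0.63), a kinase that limits pyruvate entry into mitochondria, fell too. *Egln3*, a prolyl hydroxylase, was the gene called higher, at 0.73 (SE 0.21).

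Over all tested genes edgeR called 8.04% lower and 12.8% higher. Of 13 genes of the TOR pathway, on which *Sesn2* and *Ddit4* act, 1 was called lower and 0 higher by edgeR and by DESeq2 (1 and 1 at an unadjusted p under 0.05 in edgeR). The gene was *Nprl2*, a subunit of the GATOR complex that inhibits TORC1 (log2 change -0.55, SE 0.11), and it was not called without Nrf1-CKO replicate 2 (-0.47). On the deposited normalized values, limma gave -1.11 for *Ndufa4l2* and did not call *Fas* (0.35), *Plk3* (-0.44), *Tigar* (9630033F20Rik, -0.41), *Ankrd37* (-0.41), *Egln3* (0.38) or *Nprl2* (-0.42).

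By the root mean square distance of centred log2 CPM over the 4 libraries, among 11325 genes of at least 5 CPM, those nearest to *Atf4* were *Traf2* (0.001), *Man2c1* (0.007) and *Wbscr16* (0.009), and those nearest to *Ddit3* were *Vamp8* (0.011), *Col18a1* (0.024) and *Lsr* (0.024). With 4 libraries and so many genes, some will lie close to almost any gene. Nearness is therefore a description and no evidence of shared regulation.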
